A study of Gallus gallus with 9 samples.

Results

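CSF1R, TIMD4, C1QA, C1QB, CYBB and LYG2 are 6 genes of macrophage receptors and effectors, and they are described here in the circulating cells of chick embryos. Every probe set of the Affymetrix chicken array whose annotation gave exactly 1 of these symbols was taken, which came to 11 probe sets. Apart from controls the array holds 38439 probe sets. Of these, 27168 were annotated to exactly 1 symbol, and they cover 13009 symbols. CSF1R had 4 probe sets, C1QB and TIMD4 had 2 each, and C1QA, CYBB and LYG2 had 1 each. A further probe set, annotated to both CSF1R and FLT4, was left out and was called Absent on all 9 arrays.

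Macrophages engulf dying cells and microbes, and in the avian embryo they appear early, from the yolk sac, before most other white blood cells. CSF1R is the receptor for the growth factors CSF1 and IL34, on which macrophages depend for survival. TIMD4 binds the phosphatidylserine that dying cells expose, and C1QA and C1QB are chains of C1q, the first component of complement, which also coats dying cells. CYBB is the catalytic subunit of the phagocyte NADPH oxidase, and LYG2 is a goose-type lysozyme, an enzyme that cuts bacterial cell walls.

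The nRBC fraction holds the lighter, non-red cells and the RBC fraction the heavier red blood cells, both drawn from the ventricles of chick embryos and parted on a density gradient, at E6 (embryonic day 6) and E4 (embryonic day 4), with no strain or treatment given in the labels. There were 2 arrays for each stage and fraction, from separate pools of embryos, and 1 array of whole heart, the study's negative control, which was treated as E6 after its title and the methods although its table heading says E4. A single heart array allows no test, whole heart also holds blood, and the sources do not say whether the nRBC and RBC arrays share pools. The question was whether these genes differed between the fractions and the stages, and how their levels on the blood arrays stood to those in heart.

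The authors' table gives the brightness of each probe set as a MAS5 signal and calls it Present, Marginal or Absent. Signals are given here as log2 values after quantile normalization over the 8 blood arrays, with the heart array mapped onto the same quantiles. The median signal before normalization lay between 11.4 and 33.3 per array. It was 27.3 to 33.3 on E4 nRBC replicate 2, E4 RBC replicate 2 and E6 RBC replicate 2, with 188 to 256 signals below 1. On the other blood arrays it was 11.4 to 18.4, with 1182 to 2172 signals below 1. These sets, parted at 600 signals below 1, formed the block for the arrays' scale among the alternatives. Of the probe sets 34.0% to 36.0% were Present on the nRBC arrays, against 22.4% to 29.4% on the RBC arrays. RNA quality was read from GAPDH as the signal at the 3' end over that at the 5' end, a ratio that goes up with degradation. It was 5.99 and 12.7 on the E6 nRBC arrays and 4.22 and 5.20 on the E4 nRBC arrays, against 9.44 to 11.1 on the RBC arrays and 2.08 on the heart array. The value of 12.7 belongs to E6 nRBC replicate 1. The RNA was amplified before hybridization. Whether amplification bears on this ratio, or the ratio on the signals and calls of the fractions, was not tested. Of 12 macrophage markers 9 were measured, and 4 of them were higher in nRBCs and none lower by the test described below. A gene counts as called here where any of its probe sets passed, and by that rule 8.59% of all 13009 genes were higher and 1.53% lower. By the brightest probe set of each gene 3 of the 9 markers were higher, against 6.86% of all genes. C1QC and TLR4 were Present on no blood array. That list holds CSF1R, C1QA and C1QB themselves, and CSF1R and C1QB are among the 4 that were higher, so the count is not independent of the results below. The summed normalized signal of 15 red cell genes was 69377 to 101470 on the nRBC arrays, against 80076 to 99374 on the RBC arrays. These ranges overlapped, and all 15 genes were Present on at least 1 array of each fraction. Such a sum follows its brightest genes, and quantile normalization draws the brightest signals of the arrays together. A Present call gives no amount, so these values do not show how far red cells were depleted in nRBCs. The study itself reports nRBCs negative for benzidine and hemoglobins significantly higher in RBCs by quantitative PCR.

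Of the 11 probe sets, 5 rose in nRBCs over RBCs and none fell (limma, Benjamini-Hochberg adjusted p under 0.05 over all probe sets, 4 nRBC against 4 RBC arrays). They belong to 5 of the 6 genes, CSF1R, TIMD4, C1QB, CYBB and LYG2, and C1QA was the gene with no call. Over all 38439 probe sets, 4.56% were higher and 0.809% lower. The 6 genes were chosen with earlier results of these data known, so these shares only describe and do not test the genes as a set. The nRBC arrays all lay above the RBC arrays for 7 of the 11 probe sets, against 7.97% of all. The calls parted the fractions for 5, which were Present on all 4 nRBC arrays and no RBC array, against 3.11% of all. The median log2 difference was 2.52 over the 11 probe sets and -0.20 over all probe sets. Across the 11, 8 were Present on at least 1 blood array and 3 on none. Because RNA was measured in bulk, fewer cells of a type and less RNA per cell cannot be told apart.

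**Figure D1:**
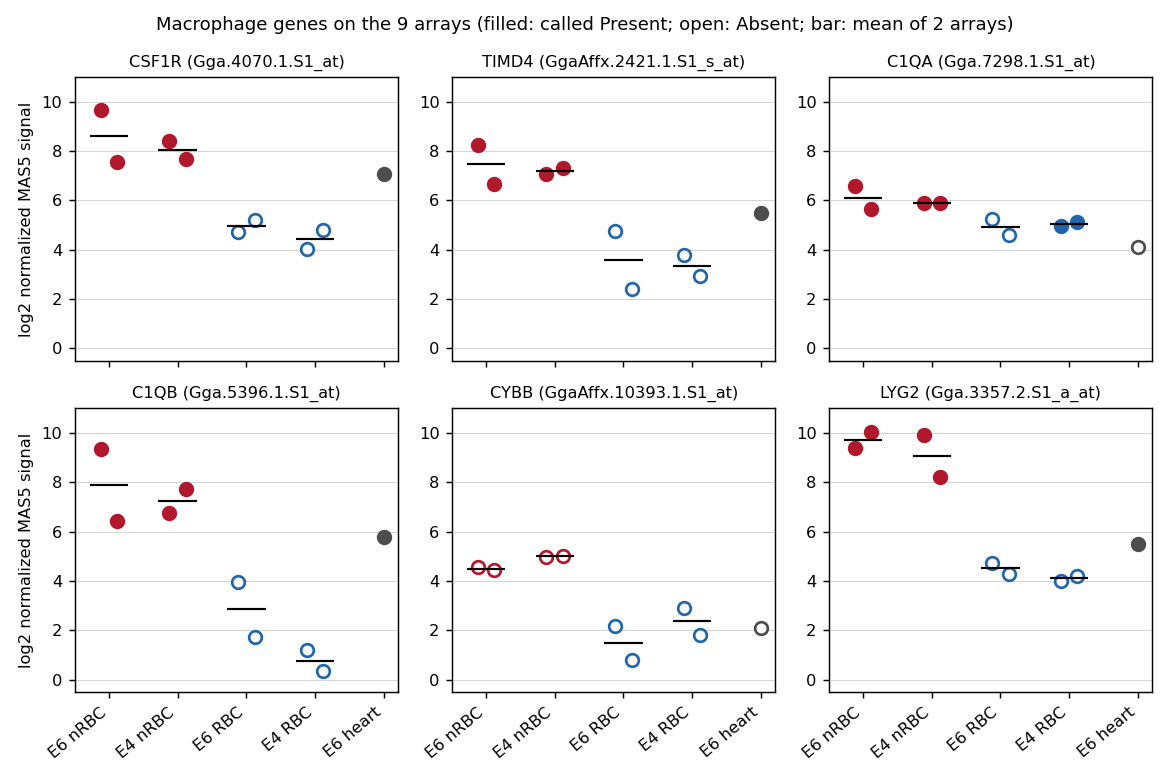
Log2 normalized MAS5 signal of 1 probe set for each of the 6 genes (y axis) on each array, by group (x axis), with filled points for Present calls, open points for calls that were not Present, and a bar at the mean of the 2 arrays of a group. The nRBC points lie above the RBC points in every panel, and for CYBB no point is filled.

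CSF1R, the receptor, was measured by its brightest probe set at 9.66 and 7.55 on the E6 nRBC arrays and 8.41 and 7.69 on the E4 nRBC arrays, against 4.71 and 5.21 on the E6 RBC arrays and 4.04 and 4.81 on the E4 RBC arrays (log2 signals). All 4 nRBC arrays were Present and lay above all RBC arrays, which were all Absent. The mean was 8.33 ± 0.96 in nRBCs and 4.69 ± 0.49 in RBCs (SD, n = 4 each), a log2 difference of 3.63 (SE 0.53, adjusted p = 0.0041, limma). Where a probe set was Present on no RBC array the size is written as "at least", and it sets the nRBC mean against a limit on each RBC array. That limit is the lowest signal called Present on the array, log2 2.18 to 3.11 over the blood arrays, or that of the probe set itself where this is higher. CSF1R was at least 12.4-fold higher in nRBCs by this measure, which is not a strict bound because far brighter signals can be called Absent. Sampling error is left out of each size given as "at least", so smaller differences are not excluded. For CSF1R, TIMD4 and LYG2 the size equals the plain fold between the means. The 95% interval of the log2 difference of CSF1R was 2.44 to 4.83 (limma).

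The other 3 CSF1R probe sets did not pass the test. The second in brightness was Present on all 4 nRBC arrays and on no RBC array, yet its log2 signals were 5.91 to 6.76 in nRBCs and 5.50 to 6.75 in RBCs. The fractions thus overlapped in signal and parted only in their calls, with a difference of 0.17 (95% interval -0.74 to 1.09, adjusted p = 0.86, limma). The third and the fourth were Absent on every array, and their differences were 0.57 (adjusted p = 0.75) and 0.61 (adjusted p = 0.53). The CSF1R result thus rests on 1 of 4 probe sets.

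TIMD4, the phosphatidylserine receptor, was measured by its brighter probe set at 8.26 and 6.69 on the E6 nRBC arrays and 7.09 and 7.32 on the E4 nRBC arrays, against 4.76 and 2.40 on the E6 RBC arrays and 3.77 and 2.93 on the E4 RBC arrays. It was Present on every nRBC array and no RBC array, and the fractions did not overlap. TIMD4 averaged 7.34 ± 0.67 in nRBCs and 3.47 ± 1.03 in RBCs (SD, n = 4 each), at least 14.6-fold higher by the same measure. TIMD4 differed by 3.87 in log2 signal (SE 0.58, 95% interval 2.57 to 5.18, adjusted p = 0.0047, limma). Its dimmer probe set lay at 5.05 to 5.35 in nRBCs and 4.35 to 4.90 in RBCs and was Present on 1 nRBC array. There too the arrays did not overlap, but the difference of 0.57 did not pass (95% interval -0.16 to 1.29, adjusted p = 0.37).

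C1QB is a chain of C1q. By its brighter probe set it measured 9.37 and 6.45 on the E6 nRBC arrays and 6.75 and 7.71 on the E4 nRBC arrays, against 3.96 and 1.74 on the E6 RBC arrays and 1.19 and 0.37 on the E4 RBC arrays. Every nRBC array was Present and every RBC array Absent. Its mean was 7.57 ± 1.32 in nRBCs and 1.81 ± 1.54 in RBCs (SD, n = 4 each), at least 24.1-fold higher in nRBCs (log2 difference 5.76, SE 0.87, adjusted p = 0.0049, limma). The dimmer probe set of C1QB was Present on E6 nRBC replicate 1 alone among the blood arrays and measured 3.59 to 7.02 in nRBCs and 1.59 to 4.57 in RBCs. These ranges overlapped, and the difference of 2.52 did not pass (95% interval 0.67 to 4.37, adjusted p = 0.13).

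C1QA, another chain of the same molecule, was Present on all nRBC arrays but also on both E4 RBC arrays. It measured 6.58 and 5.63 on the E6 nRBC arrays and 5.88 and 5.91 on the E4 nRBC arrays, against 5.24 and 4.59 on the E6 RBC arrays and 4.96 and 5.14 on the E4 RBC arrays. Each nRBC array lay above each RBC array, by a small margin. The difference was 1.02 (95% interval 0.20 to 1.84, adjusted p = 0.16, limma), so C1QA did not pass. When testing was limited to probe sets with 2 or more Present calls among the blood arrays, of which 6 belonged to these genes, the adjusted p of C1QA was 0.040. That filter can favor probe sets that are high in 1 fraction.

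CYBB, the oxidase subunit, passed the test without a single Present call. It measured 4.55 and 4.44 on the E6 nRBC arrays and 4.98 and 5.02 on the E4 nRBC arrays, against 2.17 and 0.81 on the E6 RBC arrays and 2.91 and 1.82 on the E4 RBC arrays. The 4 nRBC arrays lay close together and above all RBC arrays. Means were 4.75 ± 0.29 in nRBCs and 1.93 ± 0.87 in RBCs (SD, n = 4 each), with a log2 difference of 2.82 (SE 0.48, adjusted p = 0.0088, limma). As CYBB was Absent on all 9 arrays, no fold is given.

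LYG2, the goose-type lysozyme, had the lowest adjusted p of the 11 probe sets. Its probe set measured 9.40 and 10.06 on the E6 nRBC arrays and 9.91 and 8.22 on the E4 nRBC arrays, against 4.75 and 4.29 on the E6 RBC arrays and 4.01 and 4.21 on the E4 RBC arrays. The lowest nRBC array stood well above the highest RBC array, and only the nRBC arrays were Present. LYG2 averaged 9.40 ± 0.83 in nRBCs and 4.32 ± 0.31 in RBCs (SD, n = 4 each), at least 33.9-fold higher by the same measure. LYG2 differed by 5.08 in log2 signal (SE 0.47, 95% interval 4.03 to 6.14, adjusted p = 4.1e-04, limma).

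**Figure D2:**
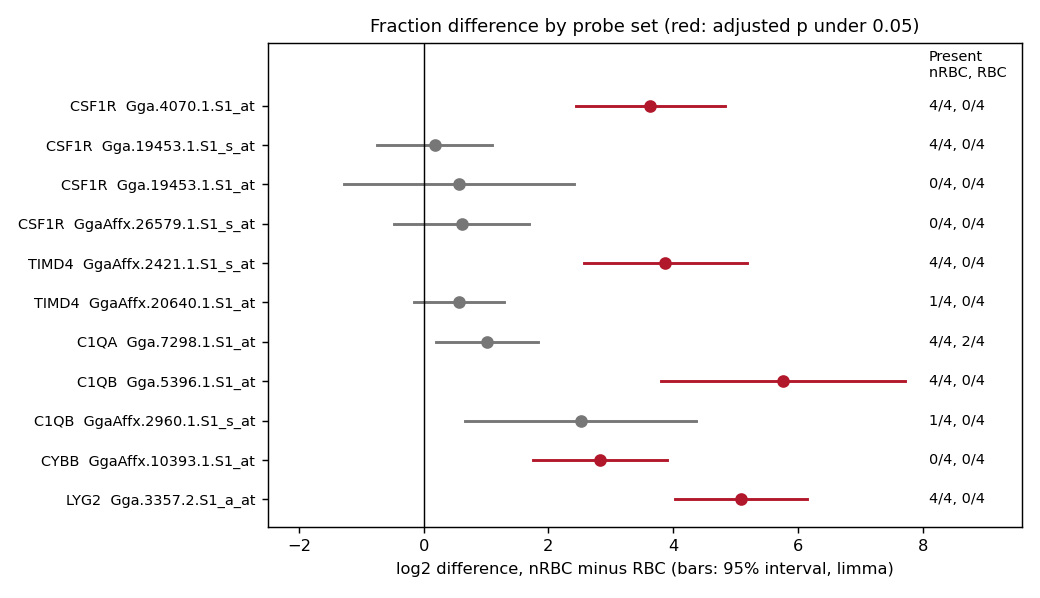
Log2 difference of nRBCs minus RBCs (x axis) for the 11 probe sets (y axis), with 95% intervals from limma and, at the right, the number of Present calls among 4 nRBC and 4 RBC arrays. The 5 red points passed the test, and all 11 differences are above 0.

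The nRBC arrays differed among themselves, and the genes did not share 1 order. E6 nRBC replicate 1 was the highest nRBC array for CSF1R, TIMD4, C1QA and C1QB, and E6 nRBC replicate 2 was the lowest nRBC array for the same 4 genes. LYG2 instead was highest on E6 nRBC replicate 2 and lowest on E4 nRBC replicate 2, and CYBB was higher on both E4 nRBC arrays than on both E6 nRBC arrays. The mean log2 level of 33 cardiac muscle genes, 1 probe set for each, was 6.47 on E6 nRBC replicate 1, against 5.16 to 5.32 on the other nRBC arrays. The mean level of the red cell genes was highest on the same array, at 12.17 against 10.89 to 11.27 on the other nRBC arrays. That of 30 fibroblast genes was 7.18 on E6 nRBC replicate 1, 6.92 and 7.10 on the E4 nRBC arrays and 5.85 on E6 nRBC replicate 2. For this list E6 nRBC replicate 2 was the array that stood apart. Without E6 nRBC replicate 1 the same 5 probe sets passed, with log2 differences of 3.21 for CSF1R (adjusted p = 0.0077), 3.58 for TIMD4 (0.017), 5.16 for C1QB (0.015), 2.88 for CYBB (0.026) and 5.12 for LYG2 (0.0026).

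**Figure D3:**
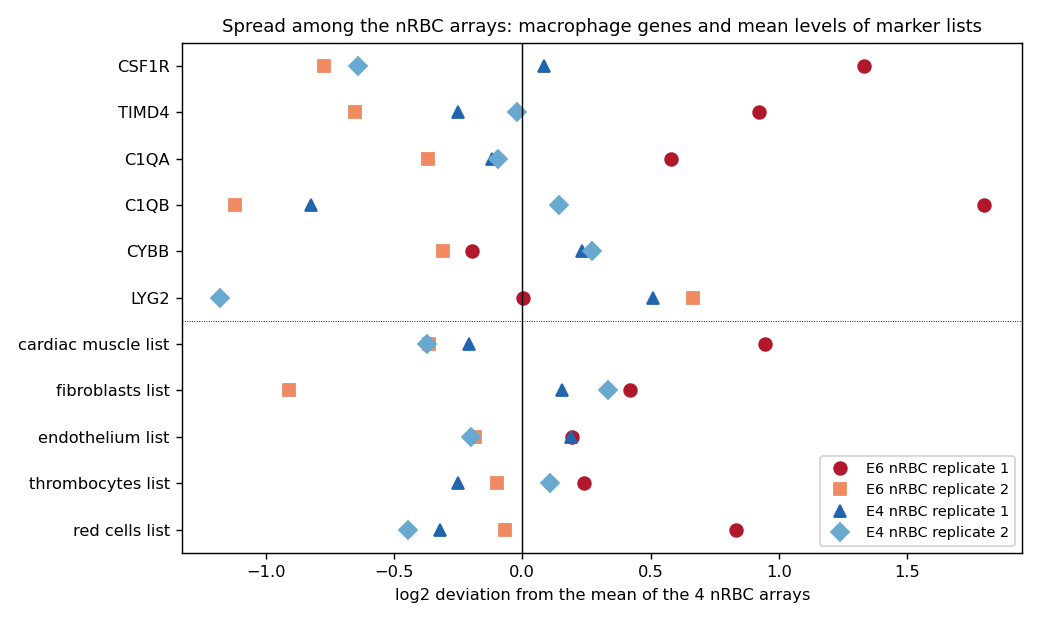
Deviation of each nRBC array from the mean of the 4 nRBC arrays (x axis, log2) for the 6 genes and, under the dotted line, for the mean levels of 5 marker lists (y axis). E6 nRBC replicate 1 lies farthest to the right for CSF1R, TIMD4, C1QA and C1QB and for each of the 5 lists, but not for CYBB or LYG2. For the endothelium list it is nearly level with E4 nRBC replicate 1, and for the fibroblast list it lies close to E4 nRBC replicate 2.

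Within each stage the differences ran the same way for the 6 genes in their main probe sets. At E6 the nRBC minus RBC differences in log2 signal were 3.64 for CSF1R, 3.89 for TIMD4, 1.19 for C1QA, 5.06 for C1QB, 3.0 for CYBB and 5.21 for LYG2. At E4 they were 3.63 for CSF1R, 3.85 for TIMD4, 0.85 for C1QA, 6.45 for C1QB, 2.64 for CYBB and 4.95 for LYG2. With 2 arrays on each side, LYG2 passed at E6 (adjusted p = 0.022), where 1.57% of all probe sets were higher in nRBCs. LYG2 (adjusted p = 0.025) and C1QB (adjusted p = 0.048) passed at E4, where 1.42% of all were higher. The adjusted p of CSF1R was 0.086 at E6 and 0.094 at E4, and that of TIMD4 was 0.11 at E6 and 0.12 at E4. These calls depend on single arrays. At E6 no call was left without any 1 of the 4 E6 arrays. At E4 no call or 1 call was left whichever of the 8 blood arrays was taken out. With arrays of the same number taken as a block, neither stage kept a call.

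Between the stages no probe set of these genes changed in either fraction, nor did any probe set of the array (limma, 0% of all in each comparison, 2 arrays on each side). In nRBCs, E6 minus E4, the log2 differences were 0.56 for CSF1R (95% interval -1.30 to 2.42), 0.27 for TIMD4 (-1.89 to 2.43), 0.21 for C1QA (-1.09 to 1.52), 0.68 for C1QB (-1.99 to 3.35), -0.50 for CYBB (-2.04 to 1.04) and 0.67 for LYG2 (-0.93 to 2.27). On the log2 scale each interval reaches at least 1.04 upward and at least 0.93 downward, so that stability is not shown. In RBCs the largest stage difference was that of C1QB, 2.07 (95% interval -0.60 to 4.74, adjusted p = 0.71). The stage difference in nRBCs minus that in RBCs was 0% called as well, and lay between -1.39 for C1QB and 0.37 for CYBB among the main probe sets. At an unadjusted p under 0.05, 1 of the 11 probe sets was higher at E6 in nRBCs, the third in brightness of CSF1R, which was Absent on every array. None of the 11 reached that level in RBCs or in the difference between the fractions. Of all 38439 probe sets 892 were higher and 804 lower at E6 in nRBCs at that level, and 1419 were higher and 1639 lower in RBCs. These counts are unadjusted, unchanged probe sets also reach that level, and none passed after adjustment. For the difference of stage effects it was 1055 higher and 981 lower.

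**Figure D4:**
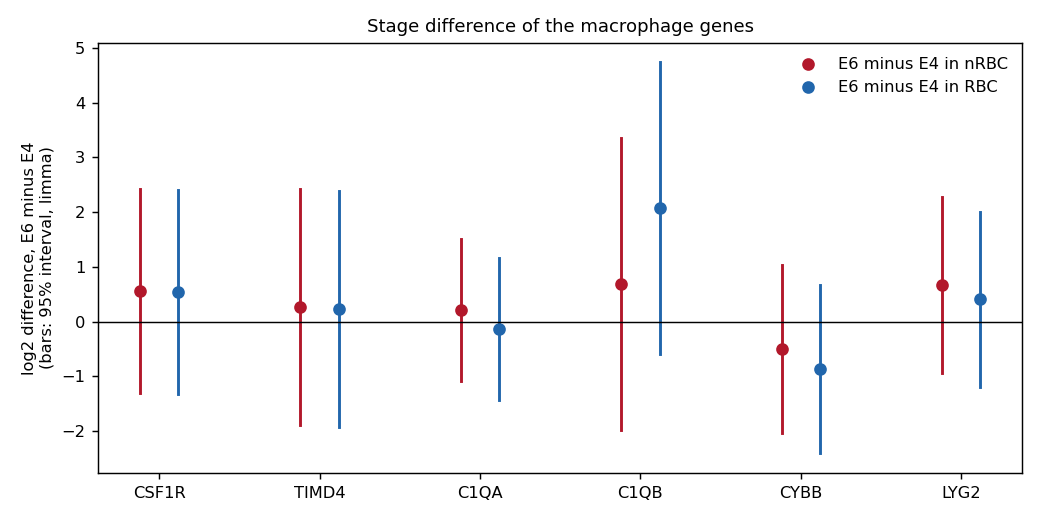
Log2 difference of E6 minus E4 (y axis, with 95% intervals from limma) in nRBCs, red, and RBCs, blue, for 1 probe set of each of the 6 genes (x axis). All 12 intervals include 0.

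The heart array stood between the fractions for 4 of the genes, by the brightest probe set of each. CSF1R measured 7.08 on the heart array, TIMD4 5.50, C1QB 5.77 and LYG2 5.52, all called Present, and in each case the heart lay below all nRBC arrays and above all RBC arrays. The nRBC mean exceeded the heart by 1.25 for CSF1R, 1.83 for TIMD4, 1.80 for C1QB and 3.88 for LYG2 on the log2 scale. C1QA measured 4.12 and CYBB 2.11 on the heart array, both Absent. For C1QA the heart lay below all blood arrays, and for CYBB it lay among the RBC arrays. The CSF1R probe set second in brightness was Present on the heart array, at 5.90. Its lowest nRBC array lay just above that, at 5.91, and 3 RBC arrays lay above the heart as well. Of the 11 probe sets, 8 had every nRBC array above the heart, against 25.8% of all. Only 1 probe set had every nRBC array below the heart, the third in brightness of CSF1R, at 3.82 and Absent on the heart array. The fourth CSF1R probe set had 1 nRBC array above the heart, and the dimmer C1QB probe set had 3. No test of the heart is possible with 1 array, and RNA of blood cells and of tissue macrophages within the heart cannot be told apart.

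Genes of other cells were counted by the same test, beside the 8.59% of all genes that were higher. In nRBCs, 15 of 33 cardiac muscle genes, 19 of 30 fibroblast genes, 11 of 24 endothelial genes, 5 of 10 thrombocyte genes, 2 of 7 granulocyte genes and 2 of 22 lymphocyte genes were higher and none was lower, while of 15 red cell genes EPB42 was lower and none higher. The lymphocyte count is near the share of all genes. The summed normalized signal of the cardiac muscle genes was 2560 to 9322 on the nRBC arrays, against 579 to 678 on the RBC arrays and 98120 on the heart array. For the fibroblast genes it was 4432 to 11900 in nRBCs, 628 to 819 in RBCs and 36555 in heart. Heart exceeded the nRBC mean for 67 of 71 cardiac and 71 of 80 fibroblast probe sets, but for 2 of the 11 probe sets of the macrophage genes, against 48.6% of all probe sets. Thrombocyte genes summed to 9544 to 15632 in nRBCs, 4320 to 7731 in RBCs and 603 in heart, and granulocyte genes to 682 to 1288 in nRBCs, 74.6 to 117 in RBCs and 169 in heart. Endothelial genes summed to 1127 to 1950 in nRBCs, 531 to 1013 in RBCs and 3642 in heart, and lymphocyte genes to 1907 to 3402 in nRBCs, 929 to 1382 in RBCs and 489 in heart. A sum follows the brightest genes of its list. The mean log2 level of the lymphocyte genes was 3.81 to 4.32 in nRBCs, 3.81 to 4.26 in RBCs and 3.74 in heart. By that measure the fractions overlapped for the lymphocyte list. Of these lists, 11 cardiac muscle, 4 fibroblast, 9 endothelial, 1 thrombocyte, 4 granulocyte and 15 lymphocyte genes were Present on no nRBC array. The part of these cells in the signals of CSF1R, TIMD4, C1QB, CYBB and LYG2 was not tested.

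Genes that act with the 6 were followed in lists of their pathways, which were also chosen with earlier results of these data known. Together these lists held 159 genes with a probe set, of which 39 were higher in nRBCs, against 8.59% of all genes. Genes with several probe sets have more chances of a call, and by 1 probe set per gene the number was 33, against 6.86% of all. Around CSF1R, 3 of 18 partners and macrophage transcription factors were higher, 1 was lower and 14 were not called, with a median log2 difference of 0.08 over its probe sets, against -0.20 over all probe sets. By 1 probe set per gene 2 of the 18 were higher. SPI1 (PU.1), the transcription factor that drives CSF1R in mammals, was at least 28.7-fold higher in nRBCs (log2 signal 7.61 ± 0.66 in nRBCs and 1.77 ± 1.07 in RBCs, SD, n = 4 each, adjusted p = 6.0e-04, limma). Its second probe set was Present on all nRBC arrays and 2 RBC arrays and missed the threshold (log2 difference 2.10, adjusted p = 0.056). BATF3 and CEBPB, leucine zipper factors of myeloid cells, were at least 16.4-fold and at least 7.13-fold higher. The lower gene was IRF5, by 1 of its probe sets, Present nowhere (log2 difference -1.53, adjusted p = 0.047). CSF1 and IL34 had no matching symbol and were not analysed here.

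Of the genes for the uptake of dying cells, TIMD4's setting, 9 of 27 were higher and none lower (median log2 difference 0.35), against 8.59% of all genes higher. HAVCR1 (TIM-1), a phosphatidylserine receptor of the same family, was higher by 2 probe sets, with sizes of at least 14.3-fold (adjusted p = 1.1e-04) and 8.40-fold (adjusted p = 0.0013). MERTK, a receptor kinase for the bridging protein GAS6, was Present on 2 of 4 nRBC arrays and exceeded RBCs at least 11.8-fold (adjusted p = 0.0019). For MERTK the probe sets disagree, since the other one differed by -2.88 in log2 signal (adjusted p = 0.065), without a Present call in blood. The integrin chains ITGB3, ITGAV and ITGB5 and the scavenger receptor CD36 were also higher. ITGB3, which also marks thrombocytes, was at least 110-fold higher. MFGE8, which links phosphatidylserine to these integrins, was at least 4.95-fold higher by 1 probe set (adjusted p = 0.042) and not called by another (log2 difference -0.04, adjusted p = 0.99). The mean of MFGE8 in nRBCs, 5.51, was below its level on the heart array, 8.69.

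Within the complement list 3 of 22 genes were higher and none lower (median log2 difference -0.29), against 8.59% of all genes higher, and 1 of the 3 was Present nowhere. C1R, a protease that binds C1q, was at least 6.09-fold higher by 1 of its 2 probe sets (5.78 ± 0.66 in nRBCs and 3.09 ± 0.70 in RBCs, SD, n = 4 each, adjusted p = 0.013), with 6.94 on the heart array. C1S, its partner protease, differed by 2.06 (adjusted p = 0.17), and C1QC, the remaining chain of C1q, by 1.82 (95% interval 0.38 to 3.25, adjusted p = 0.16). Neither C1S nor C1QC was Present on a blood array. CFI, a complement protease, was at least 74.7-fold higher and measured 11.15 ± 1.24 in nRBCs (SD, n = 4) and 11.99 on the heart array. That is 1 of 4 CFI probe sets, and the others, Present on no blood array, differed by -1.09, -0.79 and -0.75 and did not pass. ITGB2, the shared chain of the leukocyte integrins and complement receptors, differed by 4.84 (adjusted p = 3.9e-04) while Present nowhere, as CYBB was.

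Among the NADPH oxidase genes 5 of 19 were higher and none lower (median log2 difference 0.01), against 8.59% of all genes higher. By 1 probe set per gene 3 of the 19 were higher, against 6.86% of all genes. RAC2, the GTPase that activates the phagocyte oxidase, had log2 signals of 11.24 ± 0.22 in nRBCs and 2.72 ± 1.18 in RBCs (SD, n = 4 each), at least 254-fold higher (adjusted p = 1.2e-04, limma). CYBA, the membrane partner of CYBB, was higher by a probe set Present nowhere (log2 difference 2.98, adjusted p = 0.0024). A second CYBA probe set, Present on all nRBC arrays and 1 RBC array, differed by 1.38 and did not pass (adjusted p = 0.072). NCF4, a cytosolic subunit, exceeded RBCs at least 8.56-fold (adjusted p = 5.5e-04), while its second probe set differed by 0.00 (adjusted p = 0.998), Present on 1 RBC array only. The kinases PRKCD and PRKCB were the other genes higher.

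Of the lysozymes and lysosomal proteins 5 of 31 were higher and none lower (median log2 difference 0.30), against 8.59% of all genes higher. LYZ, the chicken-type lysozyme, was Present on no array, and its probe sets differed by -0.31 (adjusted p = 0.87) and -1.22 (adjusted p = 0.42). LYGL, a further goose-type lysozyme gene, differed by 1.40 (adjusted p = 0.29) and was Present on 2 nRBC arrays and 1 RBC array. LYG2 was thus the lysozyme gene that passed among those measured. The higher genes were NPC2, a cholesterol carrier of lysosomes that was Present on all blood arrays (10.41 ± 0.63 in nRBCs and 7.40 ± 0.14 in RBCs, SD, n = 4 each, adjusted p = 0.0026), the cathepsins CTSO and CTSC, the enzyme HEXA and the membrane protein LAPTM5.

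Of other macrophage receptors and effectors 14 of 43 were higher and 2 lower (median log2 difference 0.75), against 8.59% and 1.53% of all genes. CD200R1A, a receptor that restrains myeloid cells, exceeded RBCs at least 295-fold, and F13A1, the coagulation factor chain found in macrophages and platelets, at least 235-fold. LY96, the TLR4 co-receptor, PTPRC (CD45), the common leukocyte antigen, TGFBI and HMOX1 were the others with the lowest p-values in the list. TLR4 itself was not Present in blood and differed by 1.71 (adjusted p = 0.075). MARCO, a scavenger receptor of resident macrophages, stood at 4.75 ± 0.40 in nRBCs and 5.29 ± 0.58 in RBCs (SD, n = 4 each, adjusted p = 0.51), and MRC1, the mannose receptor, 6.46 ± 0.41 in nRBCs and 8.25 ± 0.92 in RBCs (adjusted p = 0.083). The lower genes, named after their values were seen, were TREM2, Present nowhere (log2 difference -5.47, adjusted p = 0.012), and LPL, lipoprotein lipase, Present on all blood arrays (log2 difference -2.14, adjusted p = 0.024). Of the genes named in these lists, CTSO, HEXA, PTPRC, F13A1, ITGB3, PRKCB and TREM2 also had at least 1 probe set that did not pass.

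**Figure D5:**
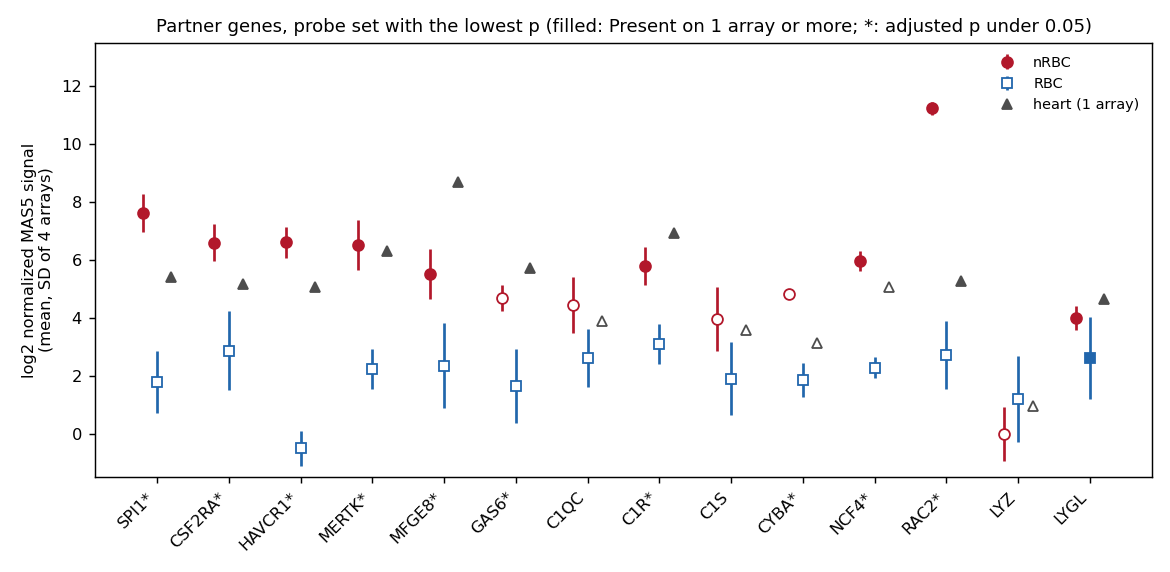
Log2 normalized MAS5 signal (y axis) of 14 partner genes (x axis), each by the probe set with the lowest p, as mean and SD over 4 nRBC arrays, red, and 4 RBC arrays, blue, and as the single heart array, grey. Filled symbols were Present on at least 1 array of the group, and asterisks mark an adjusted p under 0.05, which C1QC, C1S, LYZ and LYGL lack.

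The patterns of the 6 genes over the 9 arrays were close to each other to different degrees. Pearson's r was 0.97 between C1QB and TIMD4, 0.93 between CSF1R and C1QB and 0.90 between CSF1R and TIMD4, and for C1QA it was 0.65 to 0.81 with the other genes. Such values describe arrays that share the fractions, and a gene that parts nRBCs from RBCs can score high for that reason alone. The heart array enters r as well, and C1QA was lowest there while CSF1R, TIMD4, C1QB and LYG2 were not. Among genes Present on all nRBC arrays, the nearest to CSF1R were GSTA3 (r = 0.98), TF, DAB2IP, LOC770612 and F13A1. Nearest to TIMD4 were MYCT1 (0.98), TMCC2, CSF2RA, TNFSF13B and GPD1L2. C1QB was nearest to PPP2R2D (0.98), MYCT1, RAPGEF2, ZYX and DAPP1, and C1QA to CD244 (0.95), GRK6, ATF7IP, KLC1 and FYB1. LYG2 was nearest to LECT2 (0.98), a gene of the granulocyte list, and to NT5C3A, CMTM4, CST7 and CYP4V2. CYBB was nearest to GALNS (0.98), HOXA9, RAP1B, ADAP2 and DSE, but it was Absent on all 9 arrays, so its r rests on signals never called Present. Asking for Present calls on all nRBC arrays can favor genes that are high in that fraction.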

How the data were processed

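RNA of 8 blood samples and 1 heart was amplified and hybridized to Affymetrix chicken arrays, and the authors computed the deposited intensity values, MAS5 signals on a linear scale without scaling between arrays, together with detection calls. The MAS5 version and genome build are not given in the sources used here. The authors' second table holds deposited log2 signals less each array's mean and served as an alternative. Other deposited columns, the detection calls, were used as given. Of 38535 probe sets, 96 controls were left out. A single symbol was annotated to 27168 probe sets, several symbols to 177 and no symbol to 11094.

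Signals of 0 (11 values) were set to 0.1, and log2 values were brought to common quantiles across the 8 blood arrays. The comparison of fractions used lmFit and eBayes of limma 3.58.1 (R 4.3.3), stages pooled, and stages in a model with a mean for each of 4 groups. This stands in for the SAM procedure of the methods. Benjamini-Hochberg adjustment ran over all 38439 probe sets with no detection filter, at a threshold of 0.05. The script was tested on simulated data. Conditions and replicates came from the sample titles. Duplicate arrays came from separate pools, and their number limits the precision.

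Named were all probe sets of the 6 genes, of each list up to 6 genes with the lowest p, genes that form a known complex or ligand-receptor pair with 1 of the 6, and the 5 genes most like each by Pearson's r. Any further gene was named after its values were seen. The 6 genes and the lists were chosen with earlier results of these data known. Alternatives were other normalizations, 16 added to each signal, a detection filter, the series matrix values, an intensity trend, an average of the within-stage differences, a replicate block, the arrays' scale as a block, a stricter threshold, the methods' t-test, leaving out each array and, for the lists, 1 probe set per symbol.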

Additional observations from a re-analysis of the deposited data

How the results depend on the processing

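The pooled comparison gave 5 higher probe sets in nRBCs than in RBCs under each alternative, leaving out any 1 array included (5 to 5), except the methods' t-test without adjustment, which gave 8. With a Present call on at least 2 blood arrays required, CYBB was no longer tested and C1QA passed, so those 5 were not the same probe sets. The sizes depended on the handling of low signals. With 16 added to each signal, the log2 difference of CYBB went from 2.82 to 1.10 and that of C1QB from 5.76 to 3.32. Those of CSF1R, TIMD4 and LYG2 became 2.99, 2.65 and 4.24, from 3.63, 3.87 and 5.08. Within E6 the count was 1, and it was 2 without quantile normalization, 3 with 16 added to each signal, 4 with the detection filter and 4 with an intensity trend, 0 with the arrays' scale as a block, and 0 to 1 when 1 array was left out. Within E4 the count was 2, and it was 3 without quantile normalization, 3 with 16 added to each signal and 3 with the series matrix values. It was 4 with the detection filter, 4 with the intensity trend, 1 with the arrays' scale as a block and 0 to 1 when 1 array was left out. The stage comparisons stayed at 0 (0 to 0). The CSF1R probe set second in brightness, at 0.17, ran from -0.029 (without E6 RBC replicate 2) to 0.40 when 1 array was left out. Over all probe sets, 1753 higher and 311 lower calls became 2346 and 987 with 16 added, 2147 and 741 with the filter, 2203 and 705 with the trend, 905 and 38 at an adjusted p under 0.01, and 3690 and 3870 by the methods' t-test unadjusted. The lower count was 170 without E6 nRBC replicate 2, 132 without E4 nRBC replicate 1, 133 without E4 nRBC replicate 2 (with 1150 higher), 172 without E6 RBC replicate 1 and 157 without E6 RBC replicate 2. The 8 probe sets with all nRBC arrays above the heart became 7 with each array centred on its median, and the 39 higher list genes became 33 with 1 probe set per symbol. The cause of these changes was not tested.

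Across the fractions, deviations of arrays with the same replicate number correlated at -0.05 at E6 and 0.08 at E4 over all probe sets, and at -0.25 at E6 and 0.41 at E4 over 6595 probe sets called Present on each blood array. The labels do not say what the numbers mark and these values differ in sign, so the arrays were not taken as pairs. With the replicate block the pooled count was 5 and both within-stage counts were 0, and over all probe sets 1198 were higher and 109 lower. Because of the negative value at E6, a block with the E6 RBC numbers crossed was added after seeing the data and gave 5 pooled, 0 within E6, 0 within E4, and 1244 higher and 154 lower over all.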

Other observations

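In the gene order of the chicken assembly GRCg7b, read from the reference table and looked up after the data had been seen, C1QB, C1QC and C1QA lie side by side, and only C1QB among them passed the test. Next to TIMD4 lies HAVCR1, which was also higher in nRBCs by 2 of its 3 probe sets, while the third differed by 0.98 (adjusted p = 0.41, limma). On the other side of TIMD4 lies SGCD, which was higher by 1 of its 4 probe sets (log2 difference 3.01, adjusted p = 0.0065), Present on all 4 nRBC arrays and at 11.04 on the heart array. PDGFRB lies next to CSF1R and was Present on all 8 blood arrays. Its log2 signal was 5.70 ± 0.57 in nRBCs and 5.50 ± 0.50 in RBCs (SD, n = 4 each, adjusted p = 0.84). LYGL lies next to LYG2 and did not pass.

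No array of the 22 groups of 4 arrays (11 probe sets in each fraction) stood apart from the rest of its group by Dixon's test at 95%.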
